A study of Arabidopsis thaliana with 18 samples.

Results

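Suberin synthesis and export was followed through 10 Arabidopsis thaliana genes: KCS2 (AT1G04220), CYP86A1 (AT5G58860), CYP86B1 (AT5G23190), GPAT5 (AT3G11430), ASFT (AT5G41040), FAR1 (AT5G22500), FAR4 (AT3G44540), FAR5 (AT3G44550), ABCG6 (AT5G13580) and ABCG20 (AT3G53510). They were picked by locus code from the 34218 features of the deposited count table, and all 10 were found there. The set was chosen with earlier results of these data known, so its shares beside those of all genes are descriptive. Suberin is a waxy polyester that endodermal cells of the root lay down on the inner face of their walls after the Casparian strip has formed, and it limits the uncontrolled passage of water and solutes. Its aliphatic part is built from fatty acids that are elongated, hydroxylated at their far end, reduced to alcohols in part, joined to glycerol and to ferulic acid, and exported to the wall. The stress hormone abscisic acid (ABA) is known to increase suberin deposition in Arabidopsis roots.

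The libraries came from roots of seedlings 5 days old, with 50 to 100 seedlings pooled per sample, and the submitters describe the roots as 1 cm. Seedlings had been moved for 8 h to plates with 1 µM ABA or to mock plates. The 6 groups, with 3 libraries each, were vnd123 with ABA, vnd7 with ABA, Col-0 with ABA, vnd123 with mock, vnd7 with mock and Col-0 with mock. Col-0 is the wild type, vnd123 is mutated in VND1, VND2 and VND3 together, and vnd7 in VND7. These genes encode NAC-domain regulators of xylem vessel differentiation, and the series asks which ABA changes depend on them. The labels do not name the alleles, and nothing in them ties replicates to separately grown plants, so the p-values describe only how these libraries scatter, and that scatter may be technical.

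Depth and identity of the libraries were checked first. Total counts per library ran from 38325491 to 58705802, and the 10 genes had 194 to 35062 reads in a library. Levels below are CPM, counts scaled to a common library size, with sizes adjusted by TMM, a method that corrects for differences in library composition. The mutated loci had low levels in the libraries labelled as mutants. VND1, VND2 and VND3 averaged 0.144 ± 0.21, 0.687 ± 0.122 and 1.4 ± 0.038 CPM in vnd123 with ABA, against 0.954 ± 0.424, 3.42 ± 0.727 and 5.74 ± 0.364 CPM in Col-0 with ABA (SD, n = 3). VND7 averaged 0.295 ± 0.0965 CPM in vnd7 with ABA and 5.58 ± 0.182 CPM in Col-0 with ABA. With mock, VND1, VND2 and VND3 averaged 0.0492 ± 0.0699, 0.456 ± 0.0115 and 1.51 ± 0.232 CPM in vnd123, against 1.35 ± 0.12, 1.82 ± 0.346 and 3.76 ± 0.168 CPM in Col-0, and VND7 0.396 ± 0.192 CPM in vnd7, against 2.32 ± 0.211 CPM in Col-0. Endodermis markers were well detected, with a summed level of 773 to 1089 CPM over 10 genes per library. None of these markers had 0 reads summed over the 3 libraries of a group. Root hair markers summed to 311 to 694 CPM over 6 genes, and markers of green shoot tissue to 47.9 to 137 CPM over 6 genes.

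All 10 genes rose with ABA in vnd123, in vnd7 and in Col-0. The increase was 1.48-fold to 3.27-fold in vnd123, 1.51-fold to 3.77-fold in vnd7 and 1.54-fold to 3.25-fold in Col-0. Over all 20869 genes tested, 18.6% passed the same threshold as higher in vnd123, 18.8% in vnd7 and 17.9% in Col-0 (edgeR quasi-likelihood test, Benjamini-Hochberg adjusted p under 0.05). The median log2 fold change of the 10 genes was 1.11 in vnd123, 1.36 in vnd7 and 1.07 in Col-0, against 0.01, 0.01 and 0.00 over all genes tested. With unscaled library sizes the calls over all genes split into 3085 higher and 3838 lower in vnd123, 3053 and 4449 in vnd7 and 3050 and 4075 in Col-0, against 3872 and 2885, 3916 and 3026, and 3743 and 2789 with TMM, and all 10 genes were called higher under both. Their largest adjusted p was 0.00493 in vnd123, 0.00288 in vnd7 and 0.000512 in Col-0. In each genotype the 3 ABA libraries lay above the 3 mock libraries for each of the 10 genes, which held for 24.5%, 23.9% and 23.0% of all genes tested in vnd123, vnd7 and Col-0. Across genotypes, the lowest of the 9 ABA libraries lay above the highest of the 9 mock libraries for all 10 genes, and this was so for 12.1% of all genes tested. In bulk RNA, more suberising cells and more RNA per cell cannot be told apart.

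**Figure D1:**
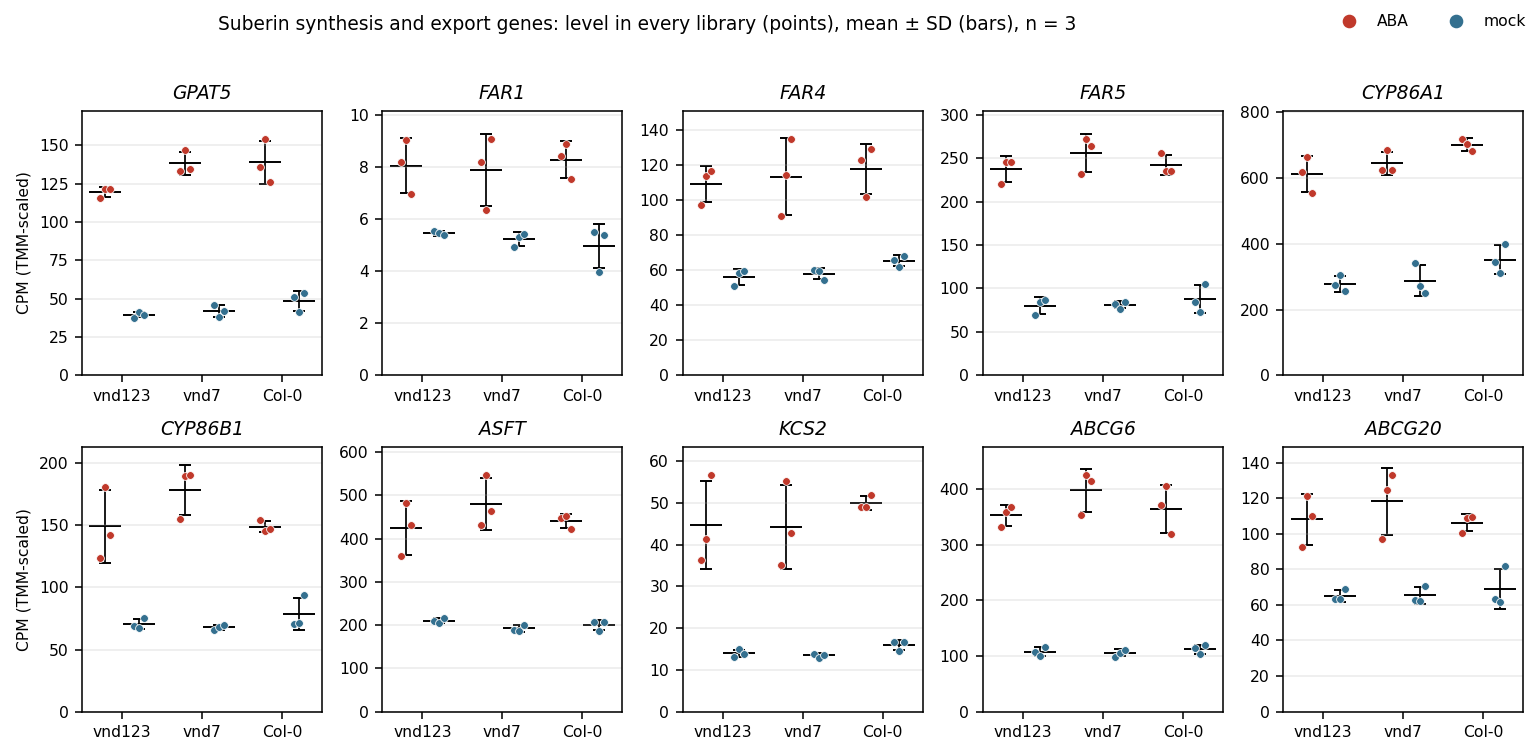
Level of each of the 10 genes in every library, in CPM on TMM-scaled library sizes, with each axis starting at 0; points are libraries, bars the mean ± SD of 3 libraries, and ABA stands left of mock within each genotype. In every panel all 9 ABA points lie above all 9 mock points.

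KCS2 encodes a ketoacyl-CoA synthase, the enzyme that sets off each round of elongation of fatty acids to very long chains, and acts in suberin together with its relative KCS20. KCS2 had 36.4, 41.3 and 56.7 CPM in vnd123 with ABA, against 13.2, 14.9 and 13.8 CPM with mock. In vnd7 KCS2 stood at 35.2, 55.2 and 42.7 CPM with ABA, against 13.8, 12.9 and 13.7 CPM with mock. In Col-0 KCS2 reached 49, 49.1 and 51.9 CPM with ABA, against 16.7, 14.5 and 16.6 CPM with mock. The ABA libraries of both mutants were spread wider than those of Col-0, yet no ABA library came near a mock one. On the log2 scale KCS2 rose by 1.68 ± 0.15 in vnd123 (adjusted p = 2.82e-08), 1.72 ± 0.15 in vnd7 (adjusted p = 1.76e-08) and 1.65 ± 0.15 in Col-0 (adjusted p = 3.14e-08). An annotated non-coding gene, AT1G04247, overlaps KCS2, and the labels name no strand-marking step for the library kit, so their reads cannot be told apart. The reads assigned to AT1G04247 also rose, with log2 fold changes of 1.35 ± 0.17 in vnd123 (adjusted p = 3.01e-06), 1.66 ± 0.17 in vnd7 (adjusted p = 1.45e-07) and 1.34 ± 0.17 in Col-0 (adjusted p = 2.97e-06), so the value of KCS2 is uncertain to that extent. AT1G04210, a coding gene whose annotation also overlaps KCS2, did not pass in any genotype, with log2 fold changes between -0.12 and 0.06.

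CYP86A1 and CYP86B1 encode cytochrome P450 enzymes that hydroxylate the far end of fatty acids, CYP86A1 on long chains and CYP86B1 on very long ones. CYP86A1 had 619.8, 663 and 554 CPM in vnd123 with ABA, against 273, 306 and 257 CPM with mock. In vnd7 CYP86A1 stood at 624, 684 and 625 CPM with ABA, against 341, 272 and 251 CPM with mock. In Col-0 CYP86A1 reached 719, 705 and 682 CPM with ABA, against 346, 310.4 and 399 CPM with mock. All 3 vnd123 ABA libraries lay below all Col-0 ABA libraries, and those of vnd7 overlapped Col-0. The log2 fold changes with ABA were 1.14 ± 0.11 in vnd123 (adjusted p = 7.14e-08), 1.16 ± 0.11 in vnd7 (adjusted p = 4.44e-08) and 1.00 ± 0.11 in Col-0 (adjusted p = 3.62e-07). CYP86B1 had 124, 181 and 142 CPM in vnd123 with ABA, against 68.9, 67.2 and 75.3 CPM with mock. In vnd7 CYP86B1 stood at 155, 189.9 and 190.5 CPM with ABA, against 66.1, 68.1 and 70.1 CPM with mock. In Col-0 CYP86B1 reached 154, 146 and 147 CPM with ABA, against 70.8, 71 and 93.7 CPM with mock. Here the 3 vnd7 ABA libraries lay above the 3 Col-0 ABA libraries, although the lowest of them, at 155 CPM, was close to the highest of Col-0, at 154 CPM. Its log2 fold changes with ABA were 1.08 ± 0.12 in vnd123 (adjusted p = 8.02e-07), 1.39 ± 0.12 in vnd7 (adjusted p = 2.57e-08) and 0.92 ± 0.12 in Col-0 (adjusted p = 5.3e-06).

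GPAT5 and ASFT encode acyltransferases. GPAT5 joins the modified fatty acids to a glycerol backbone, and ASFT, which the reference annotation lists as RWP1, joins ferulic acid to hydroxylated fatty acids and alcohols. GPAT5 had 115, 121 and 122 CPM in vnd123 with ABA, against 37.6, 41 and 39.6 CPM with mock. In vnd7 GPAT5 stood at 133, 147 and 134 CPM with ABA, against 46, 38 and 42 CPM with mock. In Col-0 GPAT5 reached 136, 154 and 126 CPM with ABA, against 50.9, 41.1 and 53.7 CPM with mock. The vnd123 libraries were the lowest with ABA and did not overlap those of Col-0. The log2 fold changes with ABA were 1.60 ± 0.10 in vnd123 (adjusted p = 1.43e-10), 1.72 ± 0.10 in vnd7 (adjusted p = 4.57e-11) and 1.51 ± 0.10 in Col-0 (adjusted p = 2.79e-10). ASFT had 359, 483 and 433 CPM in vnd123 with ABA, against 208, 205 and 217 CPM with mock. In vnd7 ASFT stood at 431, 547 and 464 CPM with ABA, against 189, 187 and 201 CPM with mock. In Col-0 ASFT reached 448, 452 and 422 CPM with ABA, against 207, 186 and 208 CPM with mock. For ASFT the genotypes overlapped with ABA, and the mock libraries of all genotypes fell in a narrow band. Its log2 fold changes with ABA were 1.02 ± 0.09 in vnd123 (adjusted p = 6.16e-08), 1.32 ± 0.09 in vnd7 (adjusted p = 1.52e-09) and 1.14 ± 0.09 in Col-0 (adjusted p = 1.26e-08). The annotated gene AT5G41050 overlaps ASFT and had at most 85 reads in any library, fewer with ABA than with mock in each genotype.

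FAR1, FAR4 and FAR5 encode fatty acyl-CoA reductases, each of which makes the primary fatty alcohols of suberin with a different preferred chain length. FAR4 and FAR5 are next to each other in the genome. FAR5 had 220.1, 246 and 246 CPM in vnd123 with ABA, against 69.4, 84.2 and 87.2 CPM with mock. In vnd7 FAR5 stood at 232, 272 and 264 CPM with ABA, against 82.6, 76.6 and 84.7 CPM with mock. In Col-0 FAR5 reached 255, 235 and 235 CPM with ABA, against 84.8, 73.1 and 105 CPM with mock. The genotypes overlapped in both treatments. With ABA, FAR5 rose on the log2 scale by 1.56 ± 0.11 in vnd123 (adjusted p = 1.49e-09), 1.66 ± 0.11 in vnd7 (adjusted p = 5.93e-10) and 1.46 ± 0.11 in Col-0 (adjusted p = 3.17e-09). FAR4 had 97.2, 114 and 116 CPM in vnd123 with ABA, against 50.9, 58.3 and 59.4 CPM with mock. In vnd7 FAR4 stood at 91, 114 and 135 CPM with ABA, against 60.1, 59.6 and 54.5 CPM with mock. In Col-0 FAR4 reached 122.6, 102 and 129 CPM with ABA, against 65.8, 62.1 and 68.3 CPM with mock. Both mutants lay below Col-0 with mock without overlap, and all genotypes overlapped with ABA. FAR4 rose with ABA on the log2 scale by 0.96 ± 0.12 in vnd123 (adjusted p = 2.48e-06), 0.97 ± 0.12 in vnd7 (adjusted p = 1.86e-06) and 0.85 ± 0.12 in Col-0 (adjusted p = 9.68e-06).

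FAR1 had the fewest reads of the members, 194 to 461 per library. FAR1 had 8.17, 9.04 and 6.95 CPM in vnd123 with ABA, against 5.56, 5.45 and 5.37 CPM with mock. In vnd7 FAR1 stood at 8.21, 6.36 and 9.08 CPM with ABA, against 4.92, 5.32 and 5.43 CPM with mock. In Col-0 FAR1 reached 8.44, 8.89 and 7.53 CPM with ABA, against 5.51, 3.98 and 5.4 CPM with mock. The smallest gap between an ABA and a mock library was in vnd7, and the genotypes overlapped throughout. The log2 fold changes of FAR1 were 0.56 ± 0.14 in vnd123 (adjusted p = 0.00493), 0.59 ± 0.14 in vnd7 (adjusted p = 0.00288) and 0.74 ± 0.15 in Col-0 (adjusted p = 0.000512). Close relatives could in principle share reads, since the handling of reads that match several genes is not given in the sources used here. FAR7 and FAR8 had 0 reads in all 18 libraries. The coding gene AT5G22505, whose annotation overlaps FAR1, and the non-coding gene AT3G06845, which overlaps FAR4, also had 0 reads in all 18. How reads in these shared stretches were counted is not given either.

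ABCG6 and ABCG20 encode half-size ABC transporters of the plasma membrane that are required for an intact suberin barrier in roots and seed coats. ABCG6 had 331, 359 and 368 CPM in vnd123 with ABA, against 107, 100.0 and 116 CPM with mock. In vnd7 ABCG6 stood at 352, 425 and 415 CPM with ABA, against 98.9, 106 and 111 CPM with mock. In Col-0 ABCG6 reached 370.1, 404 and 319 CPM with ABA, against 115, 103 and 119 CPM with mock. Every ABA library lay more than 2-fold above every mock library. The log2 fold changes of ABCG6 were 1.71 ± 0.09 in vnd123 (adjusted p = 4.2e-11), 1.91 ± 0.09 in vnd7 (adjusted p = 7.85e-12) and 1.70 ± 0.09 in Col-0 (adjusted p = 4.14e-11). ABCG20 had 92.7, 121 and 110.3 CPM in vnd123 with ABA, against 63.1, 63.4 and 69.1 CPM with mock. In vnd7 ABCG20 stood at 97.3, 125 and 133 CPM with ABA, against 63, 62.3 and 70.7 CPM with mock. In Col-0 ABCG20 reached 101, 109 and 109 CPM with ABA, against 63.1, 61.8 and 81.9 CPM with mock. Col-0 mock library 3 stood above the other mock libraries, and it remained below every ABA library. ABCG20 rose with ABA on the log2 scale by 0.73 ± 0.12 in vnd123 (adjusted p = 7.65e-05), 0.86 ± 0.12 in vnd7 (adjusted p = 1.05e-05) and 0.62 ± 0.12 in Col-0 (adjusted p = 0.000373). In Col-0 the transporters had the largest (ABCG6) and the smallest (ABCG20) response of the 10 genes.

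The order of the ABA responses was similar in the 3 genotypes, which share no libraries. ABCG6, KCS2, GPAT5 and FAR5 had the 4 largest log2 fold changes in each genotype, between 1.46 and 1.91. FAR4, ABCG20 and FAR1 had the 3 smallest in each, between 0.56 and 0.97. ASFT, CYP86A1 and CYP86B1 lay between them, at 0.92 to 1.39. The 95% intervals of all 9 neighbouring pairs in this order overlapped in each genotype, and the differences between neighbours were not tested. Intervals at the ends did not overlap. In Col-0 that of ABCG6 was 1.504 to 1.898 and that of ABCG20 0.38 to 0.87. Among all genes tested, the 10 responses ranked at percentiles of 87.9 to 97.2 in vnd123, 88.0 to 97.5 in vnd7 and 88.1 to 96.9 in Col-0. The 95th percentile of all genes tested was a log2 fold change of 1.16 in vnd123, 1.21 in vnd7 and 1.26 in Col-0, and ABCG6, KCS2, GPAT5 and FAR5 lay above it in each genotype, with CYP86B1 and ASFT also above it in vnd7. In vnd123, 7 of the 10 genes had an estimated increase of at least 2-fold and an adjusted p under 0.05. In vnd7 7 did so and in Col-0 5, against 5.22%, 5.73% and 5.81% of all genes tested. That adjusted p is against no change, and a doubling itself was not tested.

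**Figure D2:**
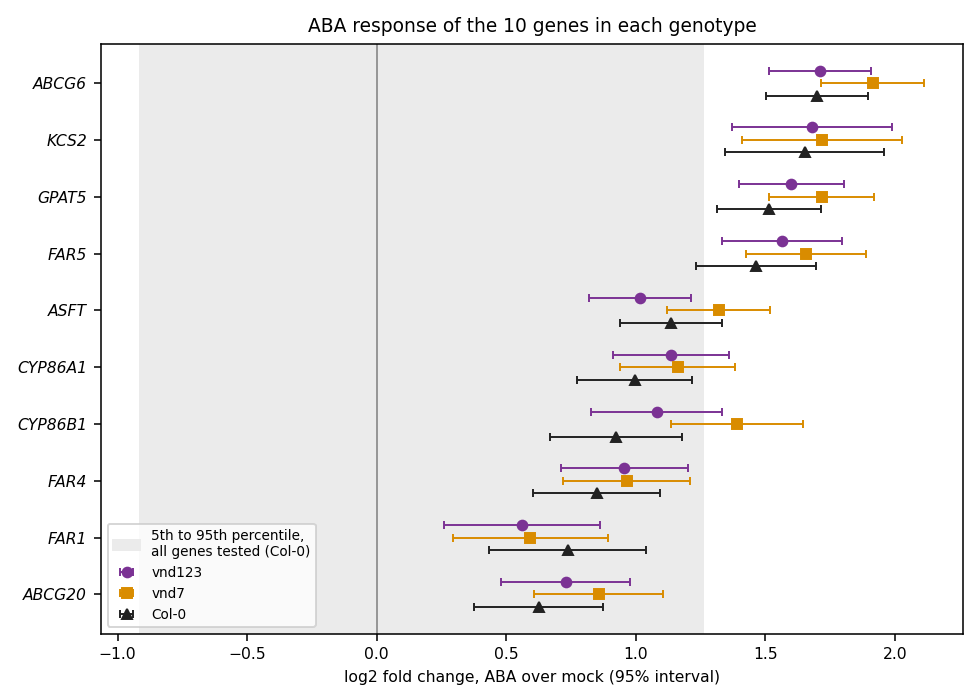
Log2 fold change of ABA over mock for each of the 10 genes (x axis, with 95% intervals from the edgeR fit) in vnd123, vnd7 and Col-0, ordered by the Col-0 value; the grey band runs from the 5th to the 95th percentile of all genes tested in Col-0. All 30 intervals lie above 0, with ABCG6, KCS2, GPAT5 and FAR5 at the top in each genotype and FAR4, FAR1 and ABCG20 at the bottom.

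None of the 10 genes passed the threshold between a vnd mutant and Col-0. With ABA, 0 of 10 passed in vnd123 against Col-0, where 1.09% of all genes did, and 0 of 10 passed in vnd7 against Col-0, where 0.163% did (edgeR, adjusted p under 0.05). With mock, 0 of 10 passed in vnd123 (0.609% of all genes) and 0 of 10 in vnd7 (0.0671% of all genes). DESeq2 also called 0 of 10 in these 4 comparisons. The 95% intervals of all 40 differences lay within a 1.5-fold change in either direction, without adjustment for their number. With mock, the median log2 difference of the 10 genes was -0.14 in each mutant, against -0.01 in vnd123 and 0.00 in vnd7 over all genes. These medians rested in part on single Col-0 libraries: without Col-0 mock 3 they were -0.01 in vnd123 and -0.05 in vnd7, and without Col-0 mock 2 they were -0.23 and -0.22. With ABA the medians were -0.05 in vnd123 and 0.04 in vnd7, and with 1 library left out they ran from -0.13 (without vnd123 ABA 2) to -0.02 (without vnd123 ABA 1) and from 0.02 (without Col-0 ABA 3) to 0.11 (without vnd7 ABA 1). Both mutants shared the Col-0 libraries in these comparisons.

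The members nearest to a genotype difference were named by the smallest p. In vnd123 with ABA this was GPAT5, at a log2 difference of -0.22 ± 0.09 (adjusted p = 0.409, 95% interval -0.41 to -0.02). In vnd123 with mock it was CYP86A1, at -0.34 ± 0.11 (adjusted p = 0.311, interval -0.56 to -0.12). In vnd7 with ABA it was CYP86B1, at 0.26 ± 0.12 (adjusted p = 0.377, interval 0.01 to 0.51). In vnd7 with mock it was again CYP86A1, at -0.29 ± 0.11 (adjusted p = 0.93, interval -0.51 to -0.07). At an unadjusted p under 0.05 these were the only members in ABA, 1 of 10 in each mutant, where 2143 of 20869 genes passed that level in vnd123 and 2665 in vnd7. With mock, 2 of 10 passed it in each mutant, against 1352 of all genes in vnd123 and 1017 in vnd7. GPAT5 was the other member in both and is named after its values were seen, at -0.30 ± 0.09 in vnd123 (adjusted p = 0.32) and -0.21 ± 0.09 in vnd7 (adjusted p = 0.947). In vnd7 with mock, 0 of 10 passed it without Col-0 mock 3, vnd7 mock 2 or vnd7 mock 3. Without Col-0 mock 2, 3 of 10 passed it in each mutant with mock, and the smallest adjusted p in vnd123 was 0.0633. In vnd123 with ABA, 0 of 10 passed it without vnd123 ABA 1, vnd123 ABA 2 or Col-0 ABA 2. Without vnd7 mock 1, 2 of 10 did. In vnd7 with ABA, 0 of 10 passed it without vnd7 ABA 3, Col-0 ABA 1, Col-0 ABA 3 or vnd7 mock 2. Without vnd7 ABA 1, 3 of 10 did. The libraries of vnd123 lay below those of Col-0 without overlap for GPAT5 and CYP86A1 with ABA, where 8.10% of all genes did so, and for GPAT5, CYP86A1 and FAR4 with mock, where 7.44% did. In vnd7 with mock, FAR4, CYP86B1 and KCS2 lay below Col-0 without overlap (5.69% of all genes), and with ABA CYP86B1 lay above it (7.48% of all genes).

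The ABA response itself did not differ between mutant and wild type past the threshold for any of the 10 genes. The interaction, which is the ABA response of the mutant minus that of Col-0, had 0 of 10 called in vnd123 and 0 of 10 in vnd7. Over all genes 0% passed in either, with 748 and 835 of 20869 genes at an unadjusted p under 0.05, and DESeq2 called 6 genes in vnd123 and 0 in vnd7, none of them a member. The member with the smallest p in vnd123 was CYP86A1, at 0.14 ± 0.15 on the log2 scale (adjusted p = 1, 95% interval -0.17 to 0.45). In vnd7 it was CYP86B1, at 0.47 ± 0.17 (adjusted p = 0.997, interval 0.11 to 0.82), the only member with an unadjusted p under 0.05. Without Col-0 mock 3 no member reached that level in vnd7. Without Col-0 mock 2, Col-0 ABA 2 or vnd7 ABA 1, 3 of 10 did, and without vnd7 mock 1, 2 of 10 did. All 20 intervals lay within a 2-fold difference in either direction, and those of 9 of 10 genes in each mutant within 1.5-fold. The exceptions were FAR1 in vnd123, at -0.60 to 0.25, and CYP86B1 in vnd7. The median interaction of the 10 genes was 0.09 in vnd123 and 0.19 in vnd7, against 0.00 in both over all genes, and both used the same Col-0 libraries. Its direction in vnd123 depended on 1 library: without Col-0 mock 3 the medians were -0.02 in vnd123 and 0.09 in vnd7, and without Col-0 mock 2 they were 0.16 and 0.26. In vnd123 the median was also 0.02 without vnd123 mock 1, 0.05 without vnd123 ABA 2 and 0.14 without vnd123 ABA 1.

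**Figure D3:**
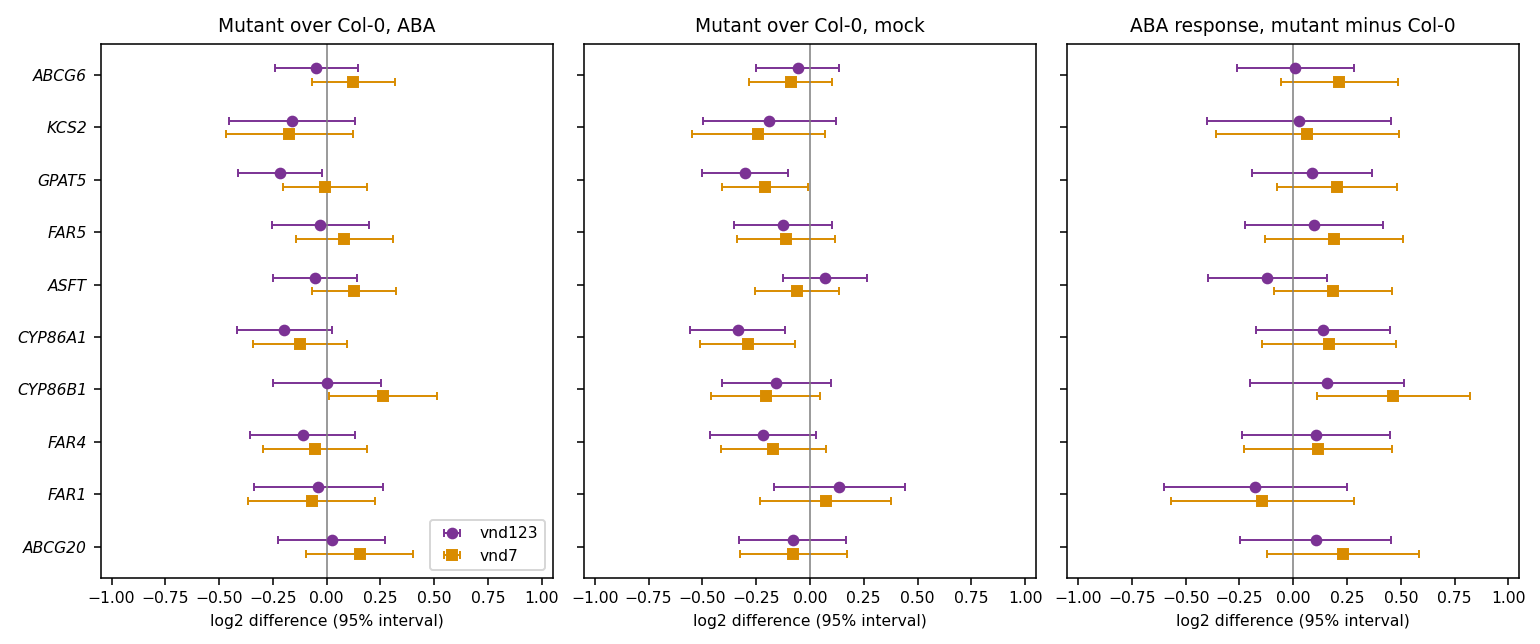
Log2 difference of vnd123 and vnd7 from Col-0 with ABA (left) and with mock (middle), and the difference of their ABA responses from that of Col-0 (right), for the 10 genes, with 95% intervals from the edgeR fit. Most intervals include 0; the largest displacement is that of CYP86B1 in vnd7 on the right, at 0.47, which did not pass after adjustment.

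Summed over the 10 genes, the level was 2004 to 2338 CPM in vnd123, 2159 to 2565 CPM in vnd7 and 2230 to 2364 CPM in Col-0 with ABA. With mock it was 897 to 945 CPM in vnd123, 888 to 965 CPM in vnd7 and 927 to 1151 CPM in Col-0. The sums with ABA lay above those with mock in each genotype, and within a treatment the sums of each mutant overlapped those of Col-0. Within groups the genes moved together from library to library. After subtraction of each group's mean from the log2 CPM, 42 of 45 gene pairs had a positive Pearson r over the 18 libraries, with a median of 0.43, against 0.00 for pairs of tested genes. These values describe libraries that share depth and handling within a sample. The pair CYP86B1 and ABCG20 had the highest r, 0.89, and FAR1 and KCS2 the lowest, -0.43. All 10 genes lay above their group mean in Col-0 mock library 3 and all 10 below it in Col-0 mock library 2. With ABA, 9 of 10 genes lay above the group mean in vnd123 library 2 and in vnd7 library 2, and 2 and 1 of 10 did so in library 1 of these groups.

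**Figure D4:**
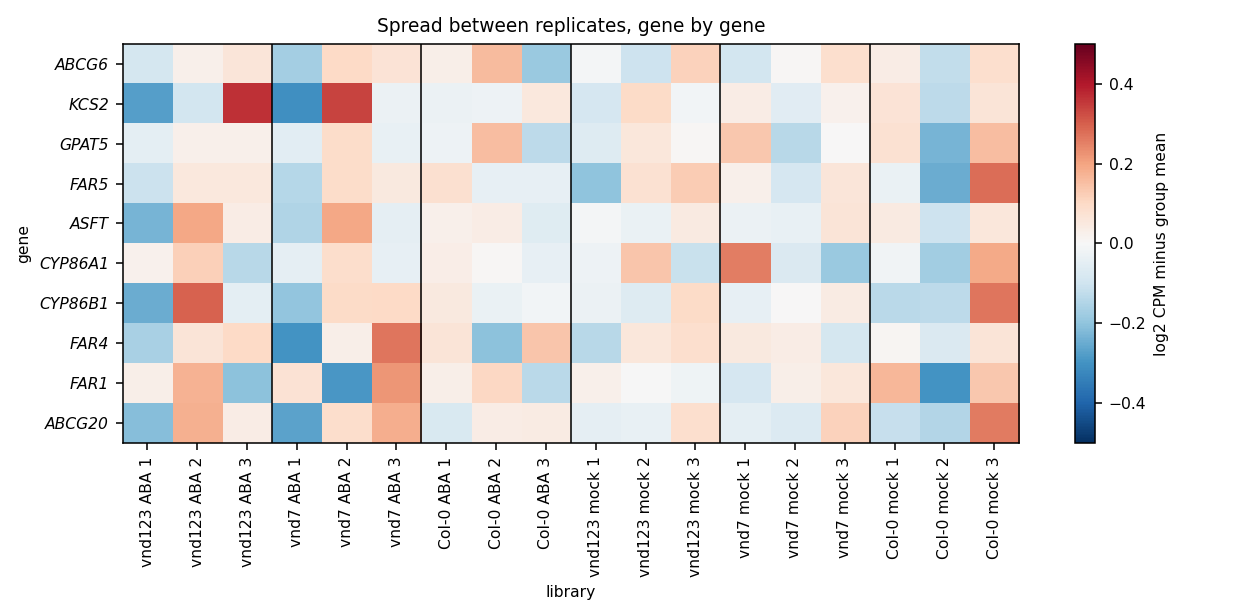
Deviation of each gene's log2 CPM from its group mean (colour) in each of the 18 libraries (columns, with lines between the 6 groups), with genes in rows from the largest to the smallest Col-0 response. Columns tend to one colour, as in Col-0 mock libraries 2 and 3, where all 10 genes deviate the same way.

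The genes most like the set were found by their Pearson r with the mean standardised log2 CPM of the 10 members over the 18 libraries. The leading ones were AT1G68850, which encodes a peroxidase, with an r of 0.992, AT3G50400, a GDSL lipase gene, at 0.992, MPK19, a MAP kinase gene, at 0.992, APC1, a mitochondrial carrier gene, at 0.989, and AT1G50630 at 0.989. Over these libraries, which include both treatments, 754 genes reached an r above 0.95. After subtraction of the group means, KCS10, another ketoacyl-CoA synthase gene, came first at 0.92, followed by CYP710A4 at 0.896, AT4G39720 at 0.883, AT1G68850 again at 0.862 and the metal transporter gene IRT3 at 0.856. AT1G68850 was the gene found by both measures.

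Other genes of the aliphatic pathway also rose with ABA. Of 22 listed genes for elongation, activation, acyl transfer, export and polymerisation, 21 were tested. In vnd123, 18 rose and 1 fell, in vnd7 17 rose and 1 fell, and in Col-0 18 rose and 2 fell. Over all genes tested, 18.6%, 18.8% and 17.9% were higher and 13.8%, 14.5% and 13.4% lower in vnd123, vnd7 and Col-0. Their median log2 fold change was 0.84 in vnd123, 0.86 in vnd7 and 0.76 in Col-0. ABCG16, a transporter gene related to ABCG6, rose by 2.79 ± 0.23 in Col-0 (adjusted p = 8.7e-09) on the log2 scale. GPAT7, the closest relative of GPAT5, rose by 2.01 ± 0.17 (adjusted p = 1.3e-08). KCS9, for elongation, rose by 1.00 ± 0.07 (adjusted p = 1.33e-09). GLL22, which encodes a GDSL lipase-like protein, fell to 257 ± 28.7 CPM with ABA, against 697 ± 50.4 CPM with mock (SD, n = 3), a log2 fold change of -1.44 ± 0.09 (adjusted p = 3.37e-10). Other GDSL-type genes of the list went the other way, with AT2G23540 at 0.87 ± 0.09, AT1G74460 at 0.69 ± 0.11 and AT5G37690 at 0.63 ± 0.12, named after their values were seen.

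Relatives of the members outside suberin differed among themselves. Of 10 listed, 7 were tested, and 4 rose and 2 fell in vnd123, 5 rose in vnd7 and 3 rose in Col-0. The medians were 0.94, 1.41 and 1.04. Of those tested, MS2 and FAR6 rested on few reads. In vnd123, MS2 had 1, 2 and 0 reads with ABA against 4, 10 and 18 with mock. FAR6 had 7, 3 and 2 reads with ABA in vnd123, against 0, 0 and 1 with mock. CYP86A2, CYP86A4 and CYP86A8, which encode hydroxylases of the leaf and flower cuticle, rose by 1.57 ± 0.13, 1.58 ± 0.20 and 1.095 ± 0.14 in Col-0 (adjusted p = 1.62e-08, 3.25e-06 and 5.83e-06). Genes that supply the phenolic part of suberin had medians nearer 0. Of 10 phenylpropanoid genes, 1 rose and 2 fell in vnd123, 6 rose in vnd7 and 2 rose in Col-0, with medians of 0.03, 0.22 and 0.03. For both lists, the shares over all genes were 18.6%, 18.8% and 17.9% higher and 13.8%, 14.5% and 13.4% lower in vnd123, vnd7 and Col-0. PAL4, for the entry step of the pathway, rose by 1.02 ± 0.10 in Col-0 (adjusted p = 1.43e-07), and 4CL1 by 0.27 ± 0.08 (adjusted p = 0.0147). The 4CL1 call ended without Col-0 ABA 1, 2 or 3 (adjusted p = 0.0698, 0.0575 and 0.0552), without Col-0 mock 2 (0.0837) and with unscaled library sizes (0.067).

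Most of the listed transcription factor genes tied to suberin also rose with ABA. Of 11 listed, 9 rose and 0 fell in each genotype, where 18.6%, 18.8% and 17.9% of all genes rose in vnd123, vnd7 and Col-0. The median log2 fold change was 1.20 in vnd123, 1.03 in vnd7 and 0.98 in Col-0. MYB93, MYB107 and MYB53 rose by 0.91 ± 0.11, 1.35 ± 0.17 and 1.16 ± 0.15 in Col-0 (adjusted p = 1.72e-06, 2.58e-06 and 5.12e-06). MYB102 had 442, 565 and 292 reads in the Col-0 ABA libraries, against 1, 0 and 6 reads in the Col-0 mock libraries (adjusted p = 1.32e-07). None of the genes of these 4 lists passed in a comparison of a mutant with Col-0 or in an interaction.

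Markers of cell types were read beside these changes, since each library was bulk RNA from roots of pooled seedlings. Over all genes tested, 18.6%, 18.8% and 17.9% rose and 13.8%, 14.5% and 13.4% fell past the threshold in vnd123, vnd7 and Col-0. Of 10 endodermis markers, 3 rose in vnd123, 2 rose and 1 fell in vnd7, and 1 rose and 1 fell in Col-0. Their medians were 0.20, 0.16 and 0.08. CASP5, a Casparian strip gene, rose in every genotype, by 2.29 ± 0.14, 2.13 ± 0.14 and 1.99 ± 0.14, and is named after its values were seen. The summed level of the endodermis markers was 1084 to 1089 CPM with ABA and 846 to 947 CPM with mock in vnd123. In vnd7 it was 924 to 1086 CPM with ABA and 773 to 943 CPM with mock, and in Col-0 1023 to 1043 CPM with ABA and 829 to 985 CPM with mock. All 7 xylem markers rose with ABA in each genotype, with medians of 0.64, 0.81 and 0.73. In vnd123 against Col-0 6 of 7 were lower with ABA and 7 of 7 with mock, where 1.09% and 0.609% of all genes passed either way. Of 6 root hair markers, 4, 5 and 5 rose in vnd123, vnd7 and Col-0. Of 4 root cap markers, 1 rose in each genotype and 1 fell in vnd7 and in Col-0. Of 5 tested shoot markers, 3 fell in vnd123, 2 in vnd7 and 2 in Col-0. In vnd123 against Col-0, 2 of these 5 were lower with ABA and 2 with mock, with medians of -0.72 and -0.50. In vnd7 against Col-0, 0 of 5 passed in either treatment, with medians of -0.40 with ABA and -0.41 with mock. The part of these cell types in the rise of the 10 suberin genes was not tested.

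**Figure D5:**
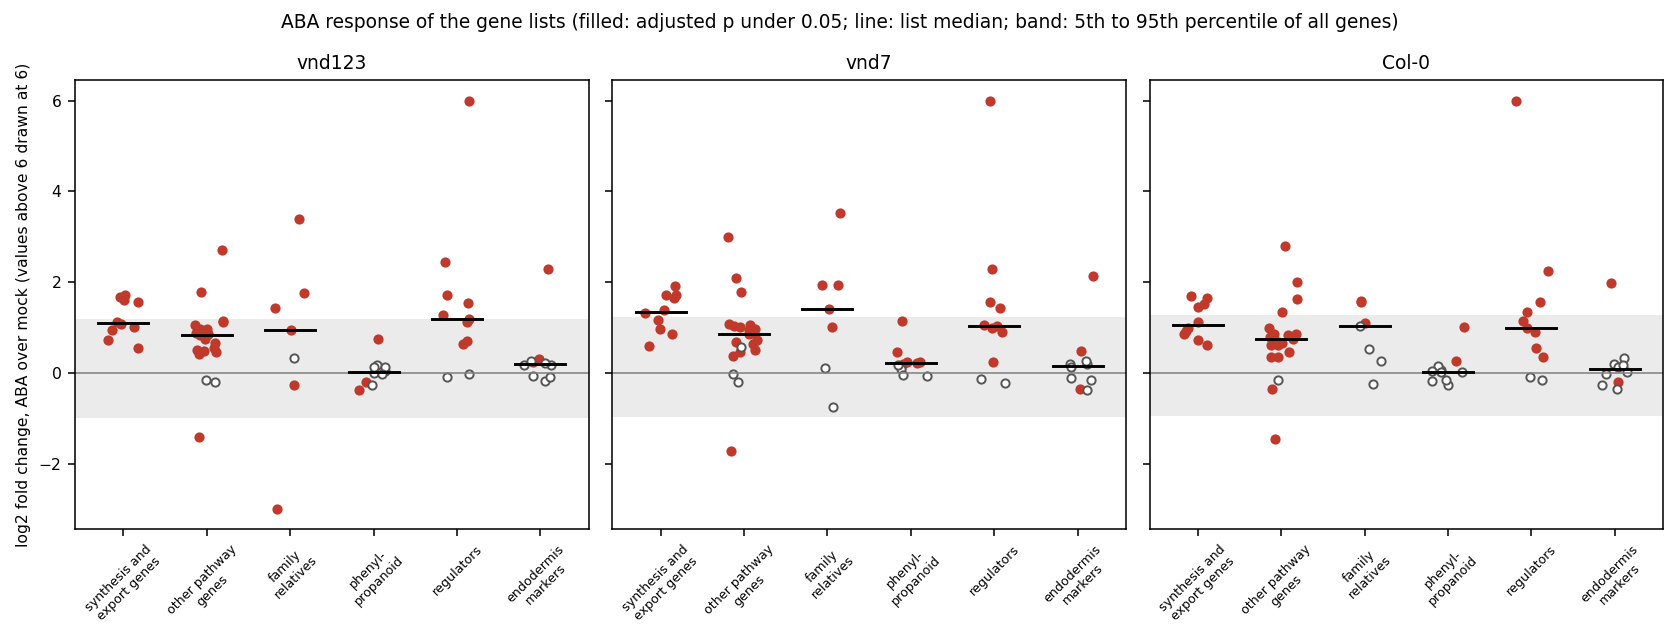
Log2 fold change of ABA over mock in vnd123, vnd7 and Col-0 for the 10 genes, other pathway genes, family relatives, phenylpropanoid genes, regulators and endodermis markers; filled points passed the adjusted p threshold, lines are list medians, and the grey band is the 5th to 95th percentile of all genes tested. MYB102 lies beyond the axis and is drawn at 6; the phenylpropanoid and endodermis lists centre near 0, at 0.03 to 0.22, while the 10 genes centre at 1.07 to 1.36.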

How the data were processed

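RNA sequencing was done on 18 root libraries, 3 in each of 6 groups, assigned by the genotype and treatment in the labels. The deposited table holds counts per gene, which the authors made with HISAT2 and HTSeq, per the submitters' processing notes. Not given in the sources used here are versions, build, annotation and the treatment of multiply matching reads. Paired-end libraries came from a NEBNext Ultra RNA kit, per the labels' protocols. Gene names were taken from the TAIR10.1 RefSeq annotation, in which 32548 of 32833 locus codes were found. Overlaps between genes were found from the gene positions in that annotation, and no coordinates are printed.

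Counts were analysed in R 4.3.3 with edgeR 4.0.16. Library sizes were scaled by TMM, filterByExpr, run by group, kept 20869 genes, all 10 members among them, and 1 coefficient per group was fitted over all 18 libraries. The quasi-likelihood test gave 9 comparisons, each adjusted by Benjamini-Hochberg over all genes tested, with a threshold of 0.05. Standard errors were derived from the log2 fold change and the F statistic, and 95% intervals from the same fit. Total counts were 38325491 to 58705802 per library, and intervals of the fit include the spread between libraries. Scripts were tested on simulated data. Alternatives were DESeq2 1.42.0, DESeq2 size factors, unscaled library sizes, no filter, a fit on the compared groups alone, a replicate block and each library left out in turn.

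The members and the gene lists were chosen with earlier results of these data known. All 10 members were named. Of the other lists, up to 4 genes called in the Col-0 ABA response were named by the smallest p, and in genotype comparisons without a call the member with the smallest p.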

Additional observations from a re-analysis of the deposited data

How the results depend on the processing

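All 30 ABA responses of the 10 genes kept their direction and their call under each of 24 settings, 720 values in all, with a largest adjusted p of 0.0416 for FAR1 in vnd123. No setting called a member in a genotype comparison or interaction. Of 456 values of the other named results, 5 lost their call, all of them 4CL1 in Col-0. These 456 include the members named by the smallest p in genotype comparisons and interactions, which had no call to lose. Counts over all genes moved more. With DESeq2, vnd123 against Col-0 gave 407 genes with ABA and 235 with mock, vnd7 against Col-0 159 with ABA and 38 with mock, and the vnd123 interaction 6, against 227, 127, 34, 14 and 0 with edgeR. With only the compared groups in the fit, vnd7 against Col-0 with ABA gave 56 genes and the vnd123 interaction 1. With 1 library left out, vnd123 against Col-0 gave 116 to 284 genes with ABA (121 without vnd123 ABA 2, 135 without Col-0 ABA 1, 116 without Col-0 ABA 2) and 84 to 134 with mock (84 without vnd123 mock 2). The causes were not tested. Same-numbered libraries had a median r of 0.01 between their deviations, with 6 of 45 pairs above 0.1 and a highest r of 0.20. Whether the replicate numbers mark pairs was not tested. With the replicate block, vnd123 against Col-0 with ABA gave 337 genes, against 227 without it. For vnd7 against Col-0 with ABA it gave 49, against 34. The ABA response in Col-0 gave 6661 genes with the block, against 6532, and a median of 1.06 for the 10 members. No member's call changed with the block. FAR1, with 194 to 461 reads, had the lowest depth of the members.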
